A study of Mus musculus with 20 samples.

Results

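The transcriptome of 10 single mouse embryos is described from their RNA counts at E4.5, the stage of the late blastocyst. These are the embryos that the labels title as controls and describe as treated with scramble siRNA, a small interfering RNA with no intended target. They were chosen by those labels, and they are 10 of the 20 samples of the series and 10 of its 16 single embryos. The other samples, not used here, are 6 embryos given siRNA against Klf5 and 4 libraries of embryonic stem cells. All 10 embryos came from mice whose strain the labels give as C57BL/5J, received the scramble siRNA by injection, and were cultured in KSOM medium with bovine serum albumin in normoxia. Uninjected embryos and embryos grown in the uterus form no group here, so the effects of the siRNA, the injection and the culture on these values cannot be told apart. Each library holds polyadenylated RNA of 1 whole embryo, made into cDNA with the SMARTseq-V4 kit. The labels name neither a litter, a sex nor a collection day, and the embryo numbers 1 to 10 carry no order.

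At this stage the embryo is a hollow ball of epithelium, the trophectoderm, which pumps fluid into the blastocoel and later attaches to the uterus. The inner cell mass on its inner face sorts into the epiblast, which forms the body, and the primitive endoderm, which forms yolk sac endoderm. Cdx2 is a homeodomain transcription factor of trophectoderm, Pou5f1 (Oct4) of the inner cell mass and Sox17 of endoderm, and Klf5 is a zinc-finger factor expressed in early blastomeres and trophectoderm. Because each library is a whole embryo, fewer cells of a type and less RNA per cell cannot be told apart.

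The libraries held 14701519 to 24939629 counts and between 13804 and 15568 genes with at least 1 count. Of 30265 genes in the table, 10692 were counted in every embryo and 10386 in none. The Pearson correlation of log2 CPM (each gene's count scaled to a common library total) between embryos was 0.860 to 0.963 over genes, with a median of 0.922, and no pair of libraries differed by as little as sampling noise. Embryos 5 and 6 stood apart from the rest on the first principal component, which held 26.3% of the variance, with scores of 117 and 109.9 against -62.5 to 29.8. They also had the 2 highest totals (24939629 and 24859788 counts), the 2 lowest shares of mitochondrially encoded transcripts (4.34% and 5.48%, against 8.04% to 18.5% in the others) and the 2 lowest shares of ribosomal protein transcripts (3.66% and 4.89%, against 5.79% to 8.85%). Results that rest on these embryos are given with and without them, and the fits on Cdx2 and Pou5f1 also with the mitochondrial share as a second term. The part of depth and of the ribosomal protein share was not tested.

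Trophectoderm markers were present in every embryo, but they did not all vary together. Krt8 and Krt18, the keratin pair of simple epithelia, were abundant in all 10. Krt18 was at 926 to 2127 CPM in 8 embryos and at 5002 and 5384 in embryos 5 and 6. For Krt8 the same ranges were 1054 to 2049 CPM, with 3037 and 3009 in embryos 5 and 6. Cdx2 was at 34.4, 23.7, 35.8, 17.1, 122, 141, 31.0, 27.9, 41.4 and 24.3 CPM in embryos 1 to 10. The Cdx2 values of embryos 5 and 6 lay above all others, and the other 8 averaged 29.5 ± 7.79 (SD, n = 8). Gata3 and Eomes, transcription factors of the same layer, did not share this step. The lowest, median and highest CPM were 143, 219.9 and 296 for Gata3 and 65.8, 79.6 and 134 for Eomes, with embryos 5 and 6 inside the range of the others for Gata3. Elf5, a factor of polar trophectoderm and its stem cells, ran the other way and was lowest in embryos 5 and 6, at 5.38 and 7.08 CPM against 11.6 to 62.3.

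Inner cell mass and primitive endoderm markers were also counted in every embryo, apart from Sox7 and Foxa2, which were at 0 in embryo 6. Pou5f1 was at 50.4, 18.8, 21.7, 28.5, 156, 132, 31.0, 43.6, 60.4 and 36.7 CPM in embryos 1 to 10, again highest in embryos 5 and 6. Nanog, a pluripotency factor of the epiblast, had its highest value in embryo 1 (64.4 CPM) and its lowest in embryo 10 (18.1), and embryos 5 and 6 lay within that range. Sox2 was low, with a lowest, median and highest CPM of 1.09, 3.70 and 13.4. Fgf4, the growth factor by which epiblast signals to primitive endoderm, was at 0.848, 11.9 and 22.8 CPM in the same order, lowest in embryo 7. Sox17 was at 33.5, 11.1, 13.5, 19.8, 52.4, 7.47, 21.4, 12.9, 10.4 and 10.4 CPM in embryos 1 to 10, and there embryo 5 was the highest and embryo 6 the lowest. Gata6, the earlier endoderm factor, was highest in embryos 1 and 4, at 139.7 and 130.3 CPM, against 44.8 to 81.8 in the rest. Pdgfra, a receptor of primitive endoderm, was at 8.45, 31.5 and 66.4 CPM (lowest, median, highest), and the lowest value was in embryo 6. Of the lists of markers of other cells that could adhere to an embryo, few genes passed the limit on low counts. These were 2 of 15 cumulus and oviduct genes, with a summed level of 0.682 to 11.8 CPM, 2 of 10 blood genes (0.426 to 19.9) and 3 of 15 fibroblast genes (38.7 to 128). The sums are over each whole list, in CPM of total counts. Most of the fibroblast sum was Fn1, fibronectin, at 31.5 to 116 CPM, and most of the blood sum in most embryos was Cd68, at 0.119 to 18.3. Among the genes of these lists that did not pass, Has2 reached 0.0805 CPM, Col1a1 0.117 and Ptprc 0.586, and Ptx3 was at 0 in all 10 embryos. Their part in other results was not tested. The oocyte genes Gdf9 and Bmp15 reached 2.54 and 1.29 CPM. Other genes of the maternal oocyte list were higher, and 9 of its 24 genes passed the limit. Its summed level was 2874 and 2995 CPM of total counts in embryos 5 and 6, against 595 to 1145 in the others. Cdx2, Pou5f1 and Sox17 were each counted in 10 of 10 embryos.

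**Figure D1:**
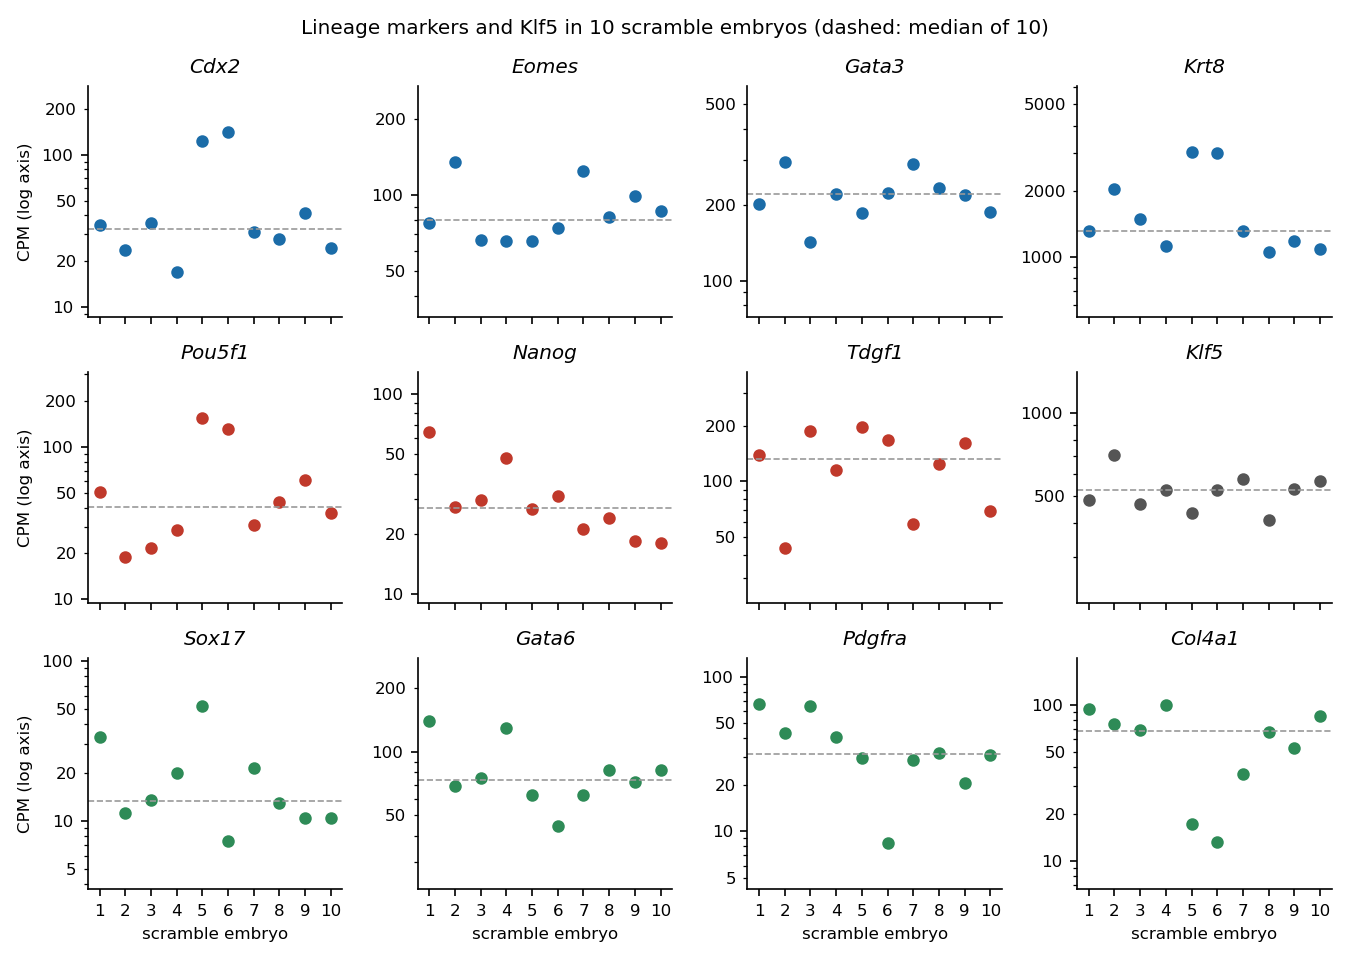
CPM on a log axis (vertical) of 12 genes in each of the 10 scramble embryos (horizontal): trophectoderm in blue, inner cell mass in red, primitive endoderm in green and Klf5 in grey, with the median of the 10 as a dashed line. Embryos 5 and 6 are the 2 highest for Cdx2, Krt8 and Pou5f1 and the 2 lowest for Col4a1, while Klf5 stays between 409.6 and 704 CPM.

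The promoters of 4 genes on which the description turns are shown, as RefSeq gives them on GRCm38.p6, from 250 bases before to 50 after the annotated start, 5′ to 3′ on the gene's strand. Krt8 (chr15:102004293-102004592, minus strand) and Krt18 (chr15:102027966-102028265, plus strand) are the keratin pair that lay highest in embryos 5 and 6. Trib3 (chr2:152344011-152344310, minus strand) is a pseudokinase gene induced by the integrated stress response, and it belongs to a group of co-varying genes below. Eef1a1 (chr9:78481675-78481974, minus strand), a translation elongation factor gene, is among the steadiest. Capitals mark TATAAA, the core of a TATA box, and GGGCGG, the core of a GC box, on either strand.
Krt8: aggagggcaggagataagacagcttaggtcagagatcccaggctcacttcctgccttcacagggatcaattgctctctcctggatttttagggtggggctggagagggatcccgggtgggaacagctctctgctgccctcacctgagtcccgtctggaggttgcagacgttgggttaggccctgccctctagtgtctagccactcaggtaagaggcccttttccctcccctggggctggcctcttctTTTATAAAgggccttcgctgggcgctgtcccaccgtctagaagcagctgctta
Krt18: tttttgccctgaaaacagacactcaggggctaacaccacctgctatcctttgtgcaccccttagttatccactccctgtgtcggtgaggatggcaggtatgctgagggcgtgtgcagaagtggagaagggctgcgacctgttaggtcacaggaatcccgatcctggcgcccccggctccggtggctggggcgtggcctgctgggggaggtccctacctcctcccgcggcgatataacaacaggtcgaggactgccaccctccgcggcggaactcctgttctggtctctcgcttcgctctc
Trib3: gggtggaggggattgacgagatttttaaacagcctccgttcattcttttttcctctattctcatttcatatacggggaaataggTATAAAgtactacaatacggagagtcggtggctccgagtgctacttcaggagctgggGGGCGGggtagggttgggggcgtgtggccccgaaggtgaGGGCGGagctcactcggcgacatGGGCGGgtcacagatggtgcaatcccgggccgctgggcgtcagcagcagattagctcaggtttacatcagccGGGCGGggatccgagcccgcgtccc
Eef1a1: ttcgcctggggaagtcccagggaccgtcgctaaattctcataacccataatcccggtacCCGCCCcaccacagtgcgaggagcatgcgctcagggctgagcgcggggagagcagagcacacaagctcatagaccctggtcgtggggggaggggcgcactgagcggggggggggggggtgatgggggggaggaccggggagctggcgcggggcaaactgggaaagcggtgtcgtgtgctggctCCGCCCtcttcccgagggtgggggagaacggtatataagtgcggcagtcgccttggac
The Krt8 window holds TATAAA on both strands in 1 overlapping run, which lies across the annotated start, and no GGGCGG. No match to either motif lies in the Krt18 window. Trib3 holds 1 TATAAA and 4 GGGCGG, and Eef1a1 2 GGGCGG and no TATAAA. Of 32851 mouse promoters of this length, 13.6% hold TATAAA and 35.7% GGGCGG. The keratin pair therefore differs in these letters although both genes were highest in the same 2 embryos.

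With predicted genes and pseudogene names set aside, the most abundant nuclear transcripts, compared per length on a TPM scale, were led by Mt1 and Dppa5a. Before that step, 1 predicted gene stood among the top 12. Mt1, a metallothionein that binds zinc and copper, was at 12341 ± 5851 (mean ± SD of the per-length level, n = 10). Dppa5a, an RNA-binding protein of pluripotent cells, followed at 11245 ± 2924, then Ftl1, the ferritin light chain, at 8699 ± 3206. H2afz, a histone H2A variant, was at 8428 ± 2309.5, and Fabp3, a fatty acid carrier of trophectoderm, at 8382 ± 2158. Hsp90aa1, a chaperone, and Dppa3 (Stella), counted here in the epiblast and naive pluripotency list, were at 7401 ± 1274 and 5141 ± 1488. The remaining 5 of the top 12 were Actg1, Rpl41, Actb, Mt2 and Gabarapl2, with means from 4363 to 4915. 181 genes held 50% of the per-length total of an average embryo, 159 reached a mean of 1000 and 1415 a mean of 100. Mitochondrially encoded mt-Co3 and mt-Co1, subunits of cytochrome c oxidase, stood above or beside all of these, at 49511 ± 23199 and 16470.4 ± 5180.1 on the same scale. With the longest annotated transcript as the length, 8 of the 12 nuclear genes stayed in the list, and by CPM with no length 9 did.

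Abundant genes were not equally steady. Mt1 was at 1890.0, 9118 and 18160.0 CPM (lowest, median, highest), and embryos 5 and 6 held its 2 lowest values, 1890.0 and 2891. Mt2 did the same, at 424 and 600.2 CPM against 1639.5 to 4218 in the other 8. Actb was highest in those embryos, at 9132 and 8281 CPM against 1873 to 4481. Gabarapl2, an autophagy gene of the ATG8 family, kept to 2814 to 4656 CPM in all 10.

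Spread between embryos was measured for 13028 genes as the SD of log2 CPM over the 10 embryos divided by the SD usual for genes of that level, a lowess trend. A ratio of 1.5 or more was called high spread and a ratio of 0.667 or less low spread, as a description with no test. High spread was found for 1618 genes, 12.4% of those kept, and low spread for 1780, 13.7%. Just inside and outside the upper limit lay Lysmd2 (1.50005) and Sfpq (1.49987), and at the lower limit Abcc4 (0.666487) and Kat6b (0.666878). With embryos 5 and 6 left out the counts were 1503 and 1795, of which 996 and 1036 were the same genes. Among the 6885 genes with a mean of at least 10 CPM, 980 had high spread, and 59 of these were at 0 in at least 1 embryo. Embryos 5 and 6 both lay above the other 8 for 365 of the 980 and both below for 350. Over all genes kept these shares were 16.1% and 13.8%. The 980 were picked by their SD over the same embryos, which favours genes with outlying embryos. X-linked genes made up 6.55% of the genes of high spread, 2.70% of those of low spread and 3.84% of all genes kept. The mitochondrially encoded genes were of high spread in 8 of 13 cases and of low spread in none. The median transcript length was 1166 bases for high spread, 1349 for low spread and 1345 for all genes kept, and whether length has a part in the spread was not tested.

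**Figure D2:**
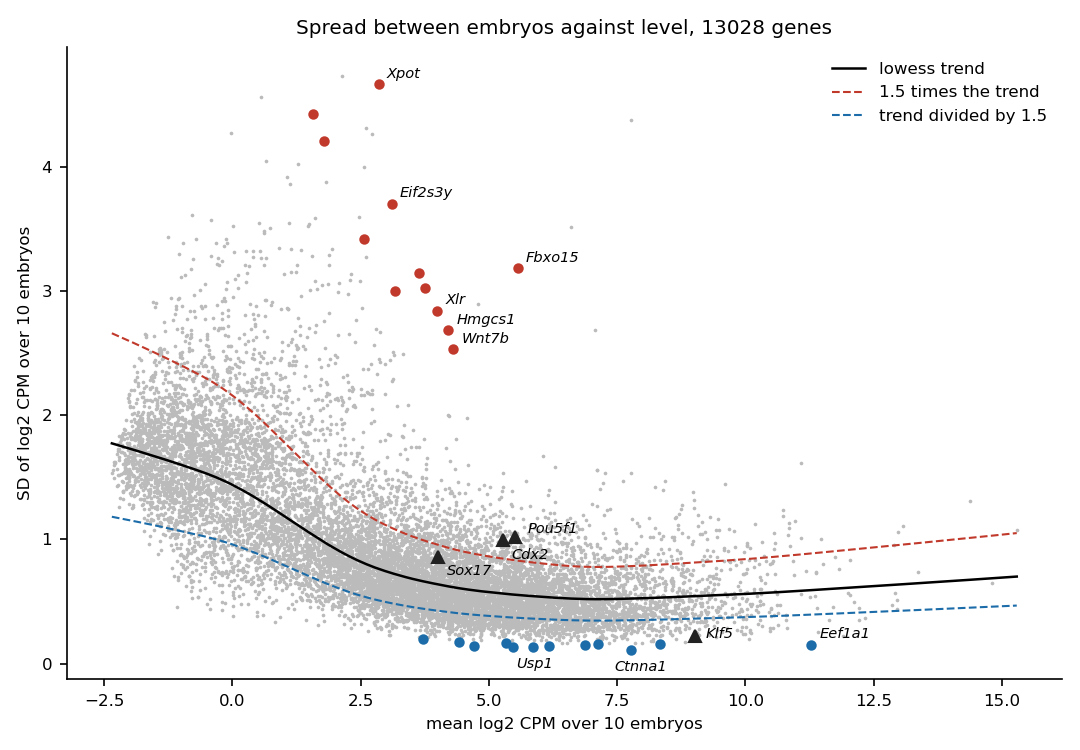
SD of log2 CPM over the 10 embryos (vertical) against mean log2 CPM (horizontal) for 13028 genes, with the lowess trend in black and the limits of high and low spread dashed. Red and blue points are the 12 named genes of highest and lowest ratio, and triangles mark Klf5 (ratio 0.410), Cdx2 (1.77), Pou5f1 (1.83) and Sox17 (1.35).

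Klf5 itself was among the steadier genes. It was at 485, 704, 469, 525, 435, 526, 578, 409.6, 531 and 565 CPM in embryos 1 to 10, with a mean of 523 ± 83.3 (SD, n = 10) and a spread ratio of 0.410, or 0.579 without embryos 5 and 6. No embryo stood apart, and embryo 2 was the highest. Of the other 13 Krüppel-like factors kept, Klf10 was of high spread, at 0, 11.2 and 30.4 CPM (lowest, median, highest) with 0 in embryo 3, and so were Klf8, lowest in embryos 5 and 6 (15.0 and 20.0 CPM against 52.3 to 114), and Klf1, which reached 9.27 CPM in embryo 2.

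Among genes with a mean of at least 10 CPM, and with predicted genes and pseudogene names set aside, the highest ratios belonged to genes that were strong in some embryos and absent or nearly so in others. Xpot, the nuclear exporter of transfer RNA, led these with a ratio of 6.12. Its CPM were 136, 121, 1.43, 6.08, 0, 0, 164, 96.5, 0.0421 and 103 in embryos 1 to 10, so that 5 embryos lay near 100 or above and 5 at 6.08 or below. Wnt7b, a secreted signalling protein, had a ratio of 4.12 and CPM of 3.08, 137, 6.79, 99.0, 29.4, 51.7, 0.339, 41.9, 48.0 and 21.2. Embryos 2 and 4 were high for Wnt7b and embryo 7 nearly lacked it. Snx17, a sorting nexin of endosomes, was at 161 CPM in both embryos 5 and 6, at 0 in embryo 4 and at 4.58 to 34.8 in the rest. Anxa7, a calcium-dependent membrane-binding protein, had a like profile, with 121 and 94.1 CPM in embryos 5 and 6, 0 in embryo 2 and 1.53 to 45.7 in the others. Grwd1, a ribosome assembly factor, was at 63.9 and 76.7 CPM there, at 0 in embryos 3 and 4, and at 2.16 to 28.0 elsewhere. Rai14, an actin-bundling protein, was at 0 in embryos 3, 4 and 8 and at 0.104 CPM in embryo 10, and it ranged from 9.82 to 61.0 in the other 6. Srp54a, a subunit of the signal recognition particle, was at 0 in embryos 2, 4, 7 and 10 and reached 91.1 CPM. It has a near-identical copy, Srp54c, at 31.8 to 139 CPM, so how reads were divided between them is uncertain. Magea8, an X-linked gene of the melanoma antigen family, ranged from 0 in embryo 6 to 94.4 CPM in embryo 3. The ratios of these last 6 genes lay between 4.16 and 4.70. Eif2s3y and Xlr, on the sex chromosomes, are described with their neighbours below.

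A few genes were missing from a single embryo. 5 genes were at 0 in exactly 1 embryo and at 10 CPM or more in the other 9. Fbxo15, an F-box gene of pluripotent cells, was at 31.8 to 164 CPM in 9 embryos and at 0 in embryo 2, where the floor of 3 counts was 0.204 CPM. Embryo 2 also lacked Rps16-ps2 and Rpl15-ps3, which the annotation lists as processed pseudogenes, and which were at 23.9 to 98.5 and 119.9 to 339.6 CPM elsewhere. Rpl10-ps3 was at 0 in embryo 5 and at 11.5 CPM in embryo 6, against 443 to 1595 in the other 8. Hmgcs1, which makes the precursor of mevalonate in cholesterol synthesis, was at 21.7 to 62.5 CPM in 9 embryos and at 0 in embryo 8, where the floor was 0.157 CPM. Its ratio of 4.32 fell to 0.962 without embryo 8, below the limit, while the ratio of Fbxo15 fell from 5.77 to 1.40 without embryo 2. These high ratios thus rest on 1 embryo each. The 3 ribosomal protein copies had ratios of 8.37 (Rpl10-ps3), 6.72 (Rpl15-ps3) and 4.95 (Rps16-ps2), of which the first 2 exceed that of Xpot. They share sequence with their parent genes, so their estimated counts are uncertain.

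The 12 named genes of lowest ratio varied little over all 10 embryos. Ctnna1 (alpha-catenin, which ties cadherin junctions to actin) had the lowest ratio of all named genes, 0.203, with a lowest, median and highest CPM of 189, 221 and 235 and a mean of 217 ± 15.7 (SD, n = 10). Klhdc10 (26.1 ± 2.68 CPM) and Usp1, a deubiquitinase of DNA repair (57.9 ± 5.35 CPM), had ratios of 0.246 and 0.247. Uggt1, the folding sensor of the endoplasmic reticulum, was at 44.5 ± 4.42 CPM with a ratio of 0.247. Eef1a1, which brings transfer RNA to the ribosome, combined a high level with a low spread, at 2011, 2486 and 2939 CPM (lowest, median, highest) and a ratio of 0.259. The next 7 were Rsrc2, Txndc11, Cish, Actr2 (a subunit of the Arp2/3 actin complex), Rab2a (a GTPase of transport between endoplasmic reticulum and Golgi), Ahcyl2 and St13 (a cofactor of the Hsp70 chaperone), with ratios from 0.271 to 0.309. For all 12, embryos 5 and 6 lay close to the rest, and without them the ratios were 0.227 to 0.458, still of low spread.

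By gene list, the median ratios of the lineage lists lay above the 0.98 of all genes kept, but so did those of several other lists. Ribosomal protein genes had 1.06, with 20 of 75 genes of high and 16 of low spread. The cholesterol and fatty acid list had 1.09, the interferon list 1.18 and the immediate early list 1.27. Lists such as cell cycle (0.90) and heat shock (0.89) lay below 0.98. Counts are over the members kept by the limit on low counts, which were 28 of 30 for trophectoderm, 25 of 28 for epiblast and 24 of 27 for primitive endoderm, and some genes stand in several lists. Of all genes kept, 12.4% were of high and 13.7% of low spread. In trophectoderm, 10 of 28 genes were of high spread and 2 of low spread, with a median ratio of 1.18. Besides Cdx2, Elf5 and Tfap2a, these included Cldn4, a tight-junction claudin, at 375 and 322 CPM in embryos 5 and 6 against 29.4 to 97.5, and Krt7, at 106 and 152 against 19.6 to 66.1. Tfap2a, an AP-2 transcription factor, went the other way, at 8.44 and 10.6 CPM against 34.6 to 88.6, and so did Dsp, the desmosome protein desmoplakin, at 103 and 109.8 against 206 to 553. Gata3 (0.593) and Atp12a, a proton pump subunit (0.608), were the 2 of low spread. Without embryos 5 and 6 the trophectoderm list had 8 genes of high and 0 of low spread. Its median ratio was then 1.02, against 0.99 for all genes. In epiblast and naive pluripotency, 7 of 25 were of high spread and none of low spread (median 1.21, or 1.19 without embryos 5 and 6). Fgf4 and Tdh, a threonine dehydrogenase of pluripotent cells, had the highest ratios there, 1.95 and 1.98, and the abundant Dppa5a and Dppa3 had 0.809 and 0.806.

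Primitive endoderm genes had 10 of 24 members of high spread and none of low spread, with a median ratio of 1.479, or 1.18 without embryos 5 and 6. Over all genes kept the shares were 12.4% and 13.7%. The basement membrane genes were among them. Col4a1 was at 17.3 and 13.3 CPM in embryos 5 and 6 against 36.1 to 99.7 in the other 8, and Col4a2 at 11.6 and 13.1 against 27.6 to 87.5. Lama1, a laminin chain, ranged from 14.7 CPM in embryo 6 to 210.1 in embryo 2. Amot, a regulator of Hippo signalling, was at 7.43 and 9.57 CPM against 35.6 to 64.5. Srgn, a proteoglycan core protein, was at 6.69 and 2.70 against 10.3 to 58.0. Cited1, a transcriptional coactivator, had the highest ratio of the list (2.76), with 0.431 CPM in embryo 2 and 68.2 in embryo 10. Dab2, an endocytic adaptor and the most abundant of these genes, had the lowest, 0.722. The summed level of the list, in CPM of total counts, ran from 1106 in embryo 7 to 1849 in embryo 3, with 1672 and 1541 in embryos 5 and 6. On that scale the sum did not set those embryos apart. The single genes that did, such as Col4a1, are given in CPM with TMM scaling, so the scales differ. With each gene weighted alike, the mean log2 CPM relative to each gene's own mean was lowest in embryo 6, at -1.37. It was -0.234 in embryo 5 and -0.443 to 0.729 in the other 8.

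The counts in the other lists stand against the same 12.4% of high and 13.7% of low spread over all genes kept. Polar trophectoderm had 7 of 14 genes of high spread (median 1.49) and mural trophectoderm 4 of 14 (1.18). Aqp8, a water channel, was at 64.1 CPM in embryo 5 and at 1.82 in embryo 6, one of the genes on which those embryos differed, and at 1.27 to 24.6 in the others. Imprinted genes had 6 of 18 of high spread (1.16), among them Peg3, at 3.68, 22.5 and 65.6 CPM (lowest, median, highest), and Plagl1, at 8.44 and 15.0 CPM in embryos 5 and 6 and 134 in embryo 4. Integrated stress genes had 6 of 20 (1.38), and tight junction and blastocoel genes 7 of 22 (1.28). FGF signalling had 3 of 15 (1.10), with Dusp6, a feedback phosphatase of the pathway, at 36.1, 21.2 and 20.5 CPM in embryos 5, 6 and 3 and at 0 in embryos 7 and 8. Among lists with a median ratio below that of all genes, cell cycle genes had 3 of 30 of high and 3 of low spread (0.90), apoptosis genes 2 and 1 of 16 (0.91), p53 targets 1 and 3 of 18 (0.93), glycolysis and hypoxia genes 3 and 3 of 21 (0.93) and heat shock genes 3 and 2 of 13 (0.89). These counts lie near the shares of all genes or are too small to be read against them. Hspa8, the constitutive Hsp70, kept to 2005 to 3380.3 CPM with a ratio of 0.422. The cholesterol and fatty acid list had 6 of 23 of high spread (1.09), implantation and adhesion 5 of 21 (0.99), the Krüppel-like factors 3 of 14 (0.92) and YAP/TEAD targets 1 of 15 (1.17). Without embryos 5 and 6 the median fell to 1.28 for polar trophectoderm, 1.11 for integrated stress and 1.08 for tight junction and blastocoel genes. It rose to 1.43 for imprinted genes, 1.24 for the cholesterol and fatty acid list and 1.15 for FGF signalling.

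**Figure D3:**
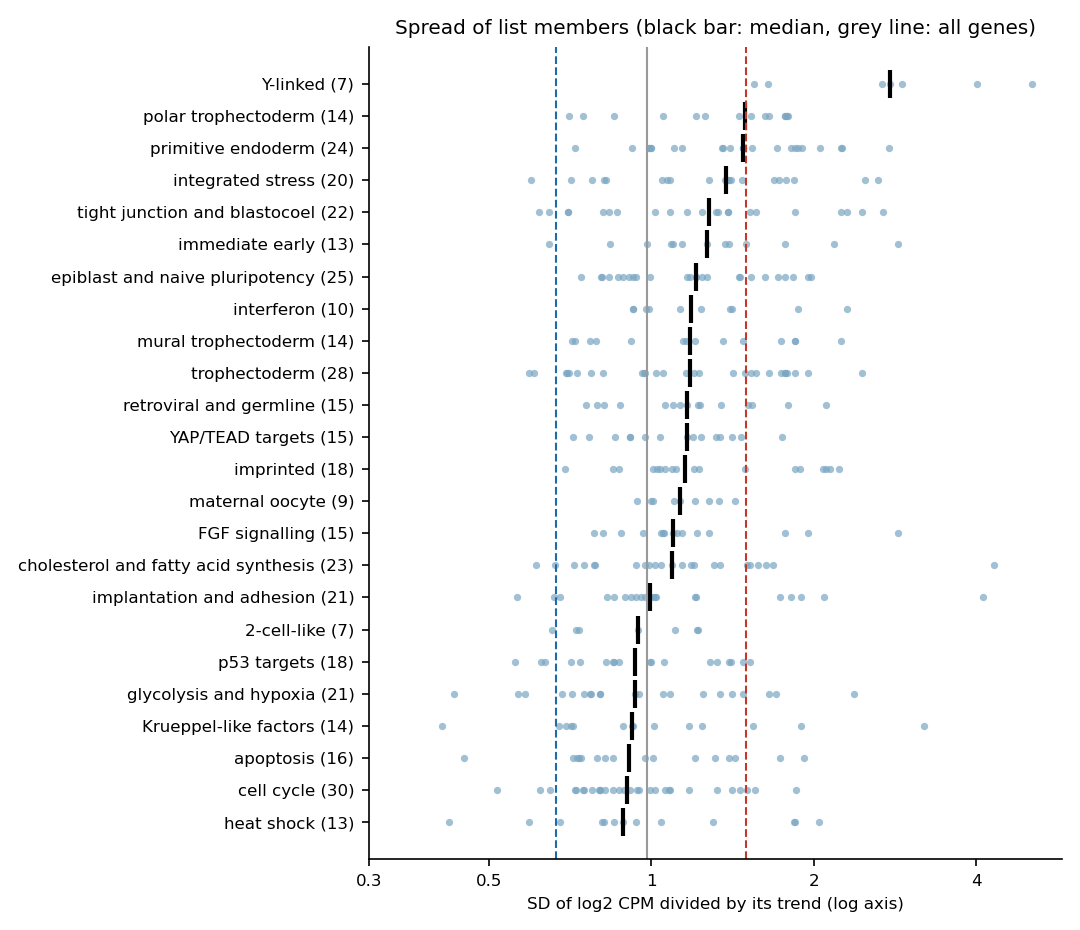
Spread ratio on a log axis (horizontal) of each member of 24 gene lists (vertical, with the number of genes kept), with black bars for list medians, a grey line for the median of all genes and dashed lines for the limits of low and high spread. The Y-linked list stands highest with a median of 2.77, primitive endoderm has 1.479 and cell cycle 0.90.

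Y-linked genes divided the embryos into a set with high and a set with low levels. All 7 Y-linked genes kept were of high spread, with a median ratio of 2.77. Eif2s3y, a Y-linked translation initiation factor, was at 50.5, 35.7, 92.0, 0.467, 100.1, 76.5, 0.200, 58.9, 0.221 and 0.471 CPM of total counts in embryos 1 to 10. It was thus at 35.7 or more in embryos 1, 2, 3, 5, 6 and 8 and below 0.5 in embryos 4, 7, 9 and 10. Ddx3y, an RNA helicase, was at 16.3 to 44.5 CPM in the first 6 embryos, at 0 in embryos 4, 7 and 9 and at 0.659 in embryo 10. Uty, a demethylase relative, divided them in the same way, at 11.1 to 31.2 against 0.265 to 1.60. Kdm5d was less clear, with 3.27 CPM in embryo 4 and 4.87 in embryo 8, and shares sequence with an X-linked relative. Embryos 5 and 6 lay on the same side for Eif2s3y, Ddx3y and Uty. The labels give no sex, and no embryo was assigned one.

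Some X-linked genes of the germline and early embryo ran the other way. Xlr, of a family of lymphocyte-regulated genes on the X chromosome, was at 314, 170.1 and 86.2 CPM of total counts in embryos 4, 10 and 7, at 7.85 in embryo 9 and at 1.41 to 19.5 in the other 6. Fthl17b, a ferritin-like gene, was at 5.67, 2.13, 10.4 and 14.9 CPM in embryos 4, 7, 9 and 10 and at 0 to 1.70 in the others. Fthl17f was at 12.1, 5.94, 14.6 and 11.9 against 0.732 to 4.83. Their relatives Fthl17a (18.7 to 48.2 CPM over all 10 embryos) and Xlr3a (121 to 207) did not divide the embryos so. The Xlr and Fthl17 genes have near-identical copies, so their estimated counts are uncertain, and they were picked after their values were seen.

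**Figure D4:**
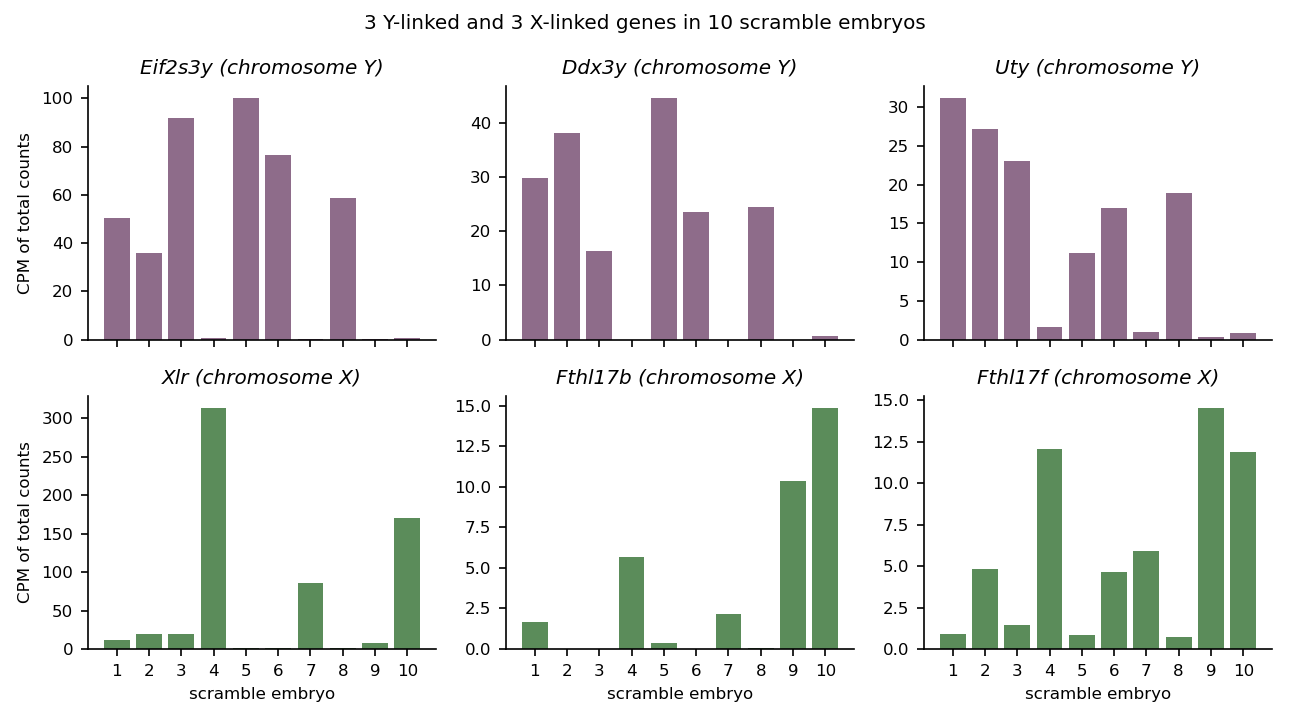
CPM of total counts (vertical, from 0) of 3 Y-linked genes (purple) and 3 X-linked genes (green) in each of the 10 embryos (horizontal). Embryos 4, 7, 9 and 10 have almost no Eif2s3y or Ddx3y, and Fthl17b and Fthl17f are higher in these 4 than in the other 6.

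Genes that vary together were sought among the 300 of highest ratio with a mean of at least 10 CPM, by average linkage on 1 minus Pearson's r of log2 CPM. 4 groups of at least 8 genes held 204 of them. The largest, with 112 genes, was low in embryos 5 and 6, with mean z scores of -1.67 and -1.40 against -0.23 to 0.86 in the others. Its centre was made of genes for small proteins: Cops9, of the COP9 signalosome, at 94.99 and 134 CPM against 325 to 909; Slirp, which stabilises mitochondrial messenger RNA, at 94.3 and 106 against 314 to 1111; and the ribosomal proteins Rps29 and Rps21. Rps29 was at 339 and 488 CPM against 1104 to 3714. The second group, with 73 genes, was high in the same 2 embryos, with mean z scores of 1.478 and 1.386 against -1.01 to 0.32. It centred on Csrp1, an actin-associated LIM protein, at 196 and 205 CPM against 13.7 to 49.7, and on Uqcrc1, a core subunit of respiratory complex III, at 752 and 639 against 66.3 to 202. Ddx39, an RNA helicase of messenger RNA export, was at 1005 and 889.5 against 116 to 272. 13 of the 112 genes of the first group and none of the 73 of the second were X-linked. The share was 6.55% over all genes of high spread and 3.84% over all genes kept. The median transcript length was 825 and 871 bases in these groups, against 1345 for all genes kept.

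Both smaller groups were lowest in other embryos. The third, of 11 genes, was low in embryo 2, with a mean z score of -2.50 against -0.02 to 0.68, and held Fbxo15, both pseudogenes missing from embryo 2, Cited1 (0.431 CPM there against 5.48 to 68.2) and the lens crystallin gene Crygc (0.288 against 3.15 to 28.0). The fourth, of 8 genes, was low in embryo 3 (-1.998) and high in embryos 5 and 6 (1.33 and 1.14). The genes closest to its mean were Nprl2, Ctsz, Trib3, Eif2b5, Acd and Ddit3. Of these, Trib3, Ddit3 and Eif2b5 are tied to the integrated stress response, and their values are given. Trib3 was at 6.28, 10.4, 0.0595, 7.69, 27.7, 21.8, 6.79, 11.3, 9.89 and 3.99 CPM in embryos 1 to 10. Ddit3 (CHOP), a transcription factor of the same response, was at 31.2, 57.2, 6.07, 11.9, 127, 108, 49.7, 65.1, 88.3 and 45.9. Eif2b5, a subunit of the exchange factor on which that response acts, was at 5.48 CPM in embryo 3, at 159.9 and 125 in embryos 5 and 6 and at 17.8 to 33.2 in the rest.

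Ranked and clustered again without embryos 5 and 6, 182 of the 300 genes were shared, and 15 groups of 8 to 22 genes held 217. The group with Trib3 held 22 genes, again low in embryo 3 (mean z score -2.07), and the group with Fbxo15 held 18, low in embryo 2 (-2.21). Of all genes kept, 3.84% were X-linked. A group of 14 genes, 7 of them X-linked, was low in embryo 1 (-1.92). In it were Bex1 and Tceal9, small X-linked proteins of 1 family cluster. Tceal9 was at 53.8 CPM in embryo 1 and at 193 to 1354 in the other 7, and Bex1 at 0.233 CPM in embryo 1 and 0.735 in embryo 8 against 6.02 to 79.7. The smallest, of 8 genes, held Ddx3y, Eif2s3y and Uty. Modules found among genes chosen for high spread describe these embryos only.

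**Figure D5:**
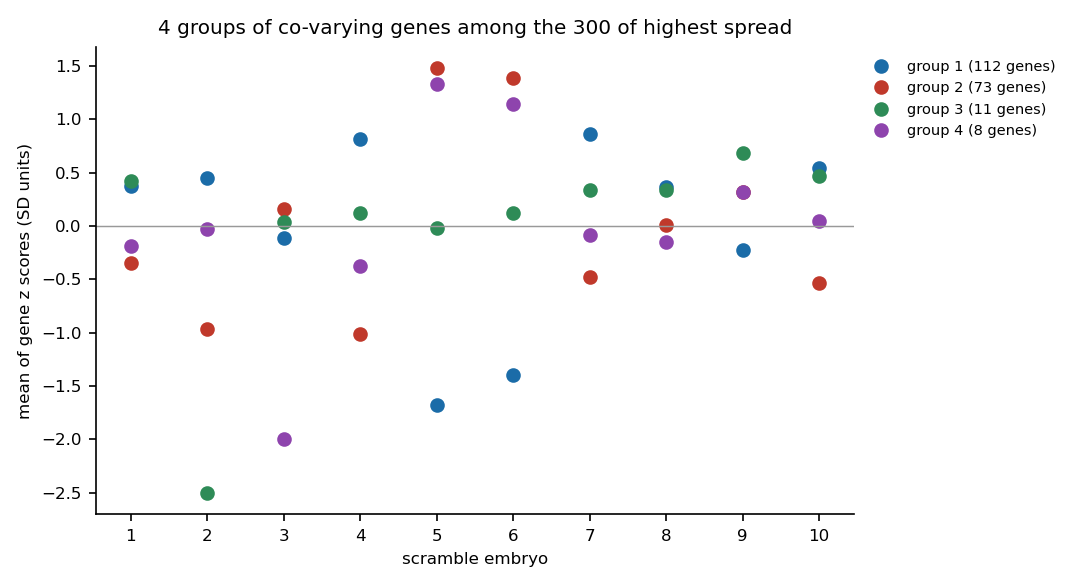
Mean z score of log2 CPM (vertical, in SD units) over the genes of each of 4 co-varying groups in each of the 10 embryos (horizontal). Groups 1 and 2 separate embryos 5 and 6 from the rest in opposite directions, group 3 is lowest in embryo 2 (-2.50) and group 4 in embryo 3 (-1.998).

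Over all 13028 genes kept, embryos 5 and 6 both lay above the other 8 for 2103 genes (16.1%) and both below for 1799 (13.8%). These embryos were picked from the data, so the counts describe them and carry no test. Integrated stress genes were above in 11 of 20 cases and below in none. Asns, asparagine synthetase, was at 499 and 292 CPM against 74.1 to 157, and Phgdh, the first enzyme of serine synthesis, at 253 and 294 against 74.6 to 121. Cell cycle genes were above in 10 of 30 and below in 2. The mitotic kinase Aurka was at 605 and 353 CPM against 76.2 to 135, the mitotic cyclin Ccnb1 at 1319.7 and 777 against 262 to 448, and Cdc20, an activator of the anaphase-promoting complex, at 361 and 326 against 73.9 to 141. Glycolysis and hypoxia genes were above in 7 of 21 and below in 2, with Eno1 at 401 and 456 CPM against 84.0 to 129.6 and Aldoa at 1216 and 1199 against 479 to 650.3. Trophectoderm genes went both ways, with 7 of 28 above and 4 below.

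In other lists more genes lay below than above in these 2 embryos. Primitive endoderm genes were above in 1 of 24 and below in 8, and imprinted genes above in 1 of 18 and below in 5, with Igf2r, the receptor that clears insulin-like growth factor 2, at 23.3 and 19.9 CPM against 41.1 to 63.8 and Sfmbt2, a Polycomb protein of extra-embryonic tissue, at 19.2 and 20.2 against 51.5 to 149. Of 75 ribosomal protein genes kept, 52 were below and 1 above. Cycs, cytochrome c, was at 411 and 283 CPM against 826 to 2064. Khdc3, of the subcortical maternal complex of oocytes and early embryos, was above, at 2323 and 2479.6 against 515 to 935, while Ooep, of the same complex, was at 70.5 and 114 against 112 to 329. The median transcript length was 1048 bases for genes above and 1386 for genes below.

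Variation with single markers was tested with edgeR's quasi-likelihood test over all genes, with the marker's log2 CPM as a continuous term. A slope is the change in a gene's log2 expression per unit of the marker's log2 CPM. With Cdx2, 1478 of 13027 genes rose (11.3%) and 1225 fell (9.4%) at an adjusted p under 0.05, or 1157 and 1544 with upper quartile scaling. Without embryos 5 and 6, 0% of 13375 genes rose or fell by edgeR, 785 had an unadjusted p under 0.05, and no other tool was run on those 8. With embryo 5 or 6 alone left out, 1072 and 1255 genes passed. The calls thus rest on the step between those 2 embryos and the rest. Mcrs1, a chromatin and centrosome protein, had the smallest p, with a slope of 2.33 ± 0.16 (SE) and an adjusted p of 2.25e-06 by edgeR. It was at 90.2 and 98.7 CPM in embryos 5 and 6 and at 0.735 to 9.82 in the others. Arpc1b, of the Arp2/3 actin complex (1.37 ± 0.11), Csrp1 (1.34 ± 0.11), Gipc1, Ddx39 and Atg4b also rose with Cdx2. Among falling genes were Rpl37 (-1.06 ± 0.12), Rpl36a, the splicing protein gene Snrpg (-1.06 ± 0.13), Ubl5, Smim27 and Ndufa3. By list, 5 of 27 trophectoderm genes rose and 4 fell, 7 of 20 integrated stress genes rose and none fell, 8 of 30 cell cycle genes rose and 2 fell, and of 24 primitive endoderm genes 1 rose and 9 fell, against the 11.3% and 9.4% of all genes.

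With Pou5f1, 1137 of 13027 genes rose (8.73%) and 860 fell (6.6%), or 906 and 1026 with upper quartile scaling. Without embryos 5 and 6, 0% of 12493 genes rose or fell by edgeR and 889 had an unadjusted p under 0.05. Leaving out embryo 5 or 6 alone left 356 and 499. Ptdss1, a phosphatidylserine synthase, had the smallest p (slope 1.82 ± 0.17, edgeR adjusted p 8.44e-05), at 207 and 148 CPM in embryos 5 and 6 against 3.48 to 40.5. Hdac1, a histone deacetylase (0.90 ± 0.10), and Sae1, of the SUMO activating enzyme (0.95 ± 0.10), rose too, as did Rfc2, Psmd4 and Alad. The trophectoderm factors Elf5 (-1.04 ± 0.16) and Tfap2a (-1.03 ± 0.16) fell, with Sec61g, Zfp36l2, Lifr and Xpo1. Trophectoderm genes rose in 4 of 28 cases and fell in 7, and epiblast genes rose in 4 of 24 and fell in 1.

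With Sox17 no gene of 13895 rose (0%) or fell (0%) by edgeR. 251 had an unadjusted p under 0.05, DESeq2 called 2 and limma voom none. Leaving out Sox17 itself and predicted genes, the smallest adjusted p was 0.0828, for Asb12 (edgeR slope 4.15 ± 0.63). With Klf5 again 0% of 13895 rose or fell by edgeR, with 668 at an unadjusted p under 0.05, 157 called by DESeq2 and none by voom. Clu, a secreted chaperone, had the smallest p (slope 7.03 ± 1.35, edgeR adjusted p 0.881), and it was at 68.5 CPM in embryo 2, where Klf5 was highest, against 0.201 to 5.75 in the rest. Without embryos 5 and 6 both fits again called 0% of 13375 genes, with 563 and 586 at an unadjusted p under 0.05. The 10 values of Klf5 span less than those of the other markers, so this range limits what a slope on Klf5 can show.

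With the mitochondrial share, 819 of 13015 genes rose (6.29%) and 1152 fell (8.85%). Without embryos 5 and 6, 0% of 13363 rose or fell by edgeR, and 754 had an unadjusted p under 0.05. Leaving out embryo 5 or 6 alone left 92 and 294. Stoml2, a scaffold of the inner mitochondrial membrane, fell (slope -0.20 ± 0.02 per percentage point, edgeR adjusted p 0.00238), and so did Cldn4 (-0.24 ± 0.03). Naa30, an N-terminal acetyltransferase (0.22 ± 0.03), and Iws1, an elongation factor (0.30 ± 0.04), rose. With the mitochondrial share as a second term, the genes that varied with Cdx2 fell from 2703 to 20 and those with Pou5f1 from 1997 to 3. Embryos 5 and 6 were the highest of the 10 for Cdx2 and Pou5f1 and the lowest for the mitochondrial share. The parts of these 3 measures therefore cannot be told apart.

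Among the 8 embryos other than 5 and 6, 21 pairs of measures were compared: log2 CPM of Cdx2, Pou5f1, Sox17 and Klf5, the mitochondrial and ribosomal protein shares and the number of genes with a count. No correlation is given over all 10, because embryos 5 and 6 form a cluster of their own. No pair passed after adjustment, and the smallest adjusted p was 0.393 (exact permutation test, two-sided). Cdx2 and Pou5f1 had r = 0.45 (exact permutation p = 0.260, adjusted 0.822) and rho = 0.52 (exact p = 0.197), and r = 0.19 without embryos 4 and 9. Cdx2 and the ribosomal protein share had r = -0.72 (exact permutation p = 0.0416, adjusted 0.393) and rho = -0.71 (exact p = 0.0576), and -0.83 without the same embryos. Sox17 and the mitochondrial share had r = 0.75 (exact permutation p = 0.0308, adjusted 0.393) and rho = 0.74 (exact p = 0.0458). Without embryos 1 and 7 that r was 0.33, so it rests on those embryos.

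Among the genes whose profile over these 8 embryos was most like a marker's were Mcrs1 (r = 0.95), Taldo1 and Rheb for Cdx2, Faap20 (0.97) and Arl2 for Pou5f1, Rhbdd1 (0.96), Nbeal1 and Atl2 for Sox17, and Hic2 (0.94), Slc13a2 and Ubqln4 for Klf5. These are among the highest of 6885 values each and are given as descriptions. Mcrs1, Atl2, Ubqln4 and Fbln1 were also among the 5 most alike over all 10 embryos, for Cdx2, Sox17, Klf5 and Klf5 in turn, and no gene was for Pou5f1. Atl2, which shapes tubules of the endoplasmic reticulum, was at 31.5 to 54.9 CPM in the 8 embryos, at 53.8 in embryo 5 and at 24.7 in embryo 6, where Sox17 was highest and lowest.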

How the data were processed

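Per the labels' protocols, polyadenylated RNA of single embryos was amplified with the SMARTseq-V4 kit. The authors deposited estimated counts for each Ensembl gene, not normalized between libraries. The submitters' processing notes name kallisto 0.46 and mm10. The annotation release and the summing to genes are not given in the sources used here. Counts were rounded to whole numbers (at most 0.000756% of a library's total). 29910 of 30265 genes matched a symbol of GENCODE M21 (GRCm38), 355 did not, and 14 symbols lay on several identifiers. Estimated counts divide reads between near-identical copies.

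Libraries were scaled with TMM (edgeR 4.0.16, factors 0.787 to 1.19). log2 CPM carry a prior count of 2. Spread was computed over genes with 10 counts or the equivalent (0.553 CPM) in at least 3 of 10 embryos, a limit set after the files were seen, with a lowess span of 0.3. Per-length levels use the median annotated transcript length. Each edgeR fit (robust quasi-likelihood, Benjamini-Hochberg, 0.05) used filterByExpr with a count minimum of 10. A marker stayed in its own fit when p-values were adjusted, and was left out of the counts of calls and the named genes. The same holds for the mitochondrially encoded genes in the fit on their share. Depth gives a floor of 3 counts of 0.120 to 0.204 CPM, a limit from counting alone, because reads copied by amplification are not separate molecules. The p-values of the fits weigh a slope against the spread between these embryos, and those of the correlations come from permuting the embryos.

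Alternatives were RLE, upper quartile and total-count scaling, no filter and a filter at 5 CPM, DESeq2 1.42.0, limma voom (limma 3.58.1), ranked covariates, the mitochondrial percent as a second covariate, a prior count of 0.5, the median absolute deviation, the CV, and each embryo left out. The exclusion of embryos 5 and 6, the counts of genes on which they lie outside the others, genes at 0 in 1 embryo, the printed promoters and their motifs, the ribosomal gene definition and the Xlr and Fthl17 genes were chosen after seeing the data. The members and gene lists were chosen with earlier results of these data known. Named genes are the 12 most abundant nuclear genes per length and the 12 highest and 12 lowest spread ratios at a mean of 10 CPM or more. Others are up to 6 slopes a direction per fit. Predicted genes were left out of all of these. Named too are list members by level and ratio, and the genes most like each marker, here over 8 embryos. Other genes named were chosen after their values were seen. A few genes that these rules name are not reported here. The scripts' fits were tested on simulated data.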

Additional observations from a re-analysis of the deposited data

Results flagged for a closer look

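In 4 of 100 groups of 10 values, 1 embryo lay farther from the rest than Dixon's limit allows. That limit is on the gap as a share of the range. The groups were log2 CPM of markers and named genes, and library measures such as total counts. Chance alone picks out about 1 group in 20 where groups are not chosen by their values. Fbxo15, Hmgcs1 and Snx17 were named for high spread over these same embryos. That rate does not apply to them, and the flags are descriptions. Fbxo15 in embryo 2 had a gap of 0.778, at 0 CPM against 31.8 to 164 in the other 9. Hmgcs1 in embryo 8 had a gap of 0.835, at 0 CPM against 21.7 to 62.5. Snx17 in embryo 4 had a gap of 0.519, at 0 CPM against 4.58 to 161. Ovgp1, an oviduct glycoprotein gene used as a marker of oviduct cells, had a gap of 0.647 in embryo 5, at 0 CPM against 1.36 to 6.11.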

How the results depend on the processing

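No paired analysis was possible because only 1 group of embryos entered the fits. At the settings tried, 115 values of the main results stayed within 1.5-fold of the main value, or at 0, and 22 moved. Direction was no part of this rule. With upper quartile scaling the Cdx2 total stayed, but 1157 genes rose and 1544 fell, against 1478 and 1225. The genes varying with Cdx2 (2703) became 1226 with ranked values, 20 with the mitochondrial percent as a second covariate and 0 without embryos 5 and 6. Those varying with Pou5f1 (1997) became 3233 with DESeq2, 674 with ranks, 3 with the mitochondrial percent and 0 without embryos 5 and 6, and those varying with the mitochondrial percent (1971) 3113 with DESeq2, 1184 with ranks and 0 without embryos 5 and 6. DESeq2 called 2 genes for Sox17 and 157 for Klf5, where edgeR called 0. Leaving out 1 embryo at a time gave 1072 to 2874 genes for Cdx2, 356 to 2753 for Pou5f1, 92 to 2144 for the mitochondrial percent (92 without embryo 5, 294 without embryo 6), 0 for Sox17 and Klf5, 1511 to 1759 of high spread and 1752 to 2045 of low spread. Genes of low spread numbered 2824 with the median absolute deviation. Over all 10 embryos 3 of the 21 pairs of measures passed, against 5 with total-count scaling and 0 without the 2 farthest embryos or without embryos 5 and 6. The ratio of Hmgcs1 became 0.812 with the median absolute deviation and ran from 0.962 (without embryo 8) to 4.76 with 1 embryo left out. Of the slopes named, 679 values kept their side, 49 fell below the threshold and 2 rose past it. The 4 groups of co-varying genes became 15 without embryos 5 and 6. Depth limits genes near the floor of 3 counts, where single counts set the value. The cause of each change was not tested.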

Other observations

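Further genes of the lists differed between single embryos. Ndrg1, a stress-responsive gene of trophectoderm, was at 759 and 513 CPM in embryos 2 and 3 and at 147 to 359 in the others. Hspb1, a small heat shock protein, was at 275, 188 and 155 CPM in embryos 7, 10 and 9 and at 32.4 to 77.6 in the rest. Ldha, which makes lactate, was at 4.04 CPM in embryo 10 and at 20.6 to 96.9 elsewhere. Dazl, a germ cell RNA-binding protein, was at 28.8 CPM in embryo 3 and at 0 to 8.72 in the others. Atf3, an early stress factor, was at 10.6 CPM in embryo 5, at 1.78 and 0.602 in embryos 7 and 4 and at 0 in the other 7. These genes were picked after their values were seen.

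The mitochondrially encoded transcripts did not rise and fall in step. mt-Nd1 was at 30367 CPM in embryo 1, its highest, while mt-Co1 and mt-Co3 were highest in embryo 7, at 63258 and 111710.0 CPM. mt-Nd3 had the highest spread ratio of the 13, 3.01, and mt-Co1 the lowest, 0.948.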
